A study of Danio rerio with 4 samples.

Results

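The change that WT zebrafish embryos underwent between 24 and 48 hours post fertilization (hpf) was followed through 2 of the 4 RNA libraries of the series, the WT library of 48 hpf and the WT library of 24 hpf. Both were taken by their genotype and time labels, and all 26812 genes of the deposited table were compared between them. The other 2 libraries, KDM5A-KO at 48 hpf and KDM5A-KO at 24 hpf, come from embryos in which the H3K4 demethylase gene was targeted with Cas9. Whole embryos were the source of RNA in each group, kept at 28 °C, with WT and KO fish mated separately according to the labels. The study's methods describe a pool of embryos per group at 24 hpf, and they describe KO embryos as injected with an sgRNA and a Cas9 plasmid, whereas the labels speak of matings of KO fish. The sample titles mark the KO libraries as mo. Column heads in the table are made of 1 letter and 1 digit, and C was read as WT, K as KDM5A-KO, 1 as 24 hpf and 2 as 48 hpf, which neither the table nor the labels spell out. Each group had 1 library, so no difference given here has a replicate check and no p-value is given.

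In the zebrafish, the day between these time points carries the embryo from the end of segmentation to hatching. The last somites form, muscle fibres begin to drive swimming, lens fibres fill with crystallin proteins, retinal cells leave the cell cycle, neurons wire up, melanophores darken and the hatching gland releases its enzymes. Whole-embryo RNA sums over all of these tissues, and more cells of a type and more RNA per cell cannot be told apart in it.

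The libraries held 15525056 reads at 48 hpf and 7441797 reads at 24 hpf in WT, recovered from the steps between FPKM values. FPKM counts the fragments of a gene relative to its length and to all mapped fragments of the library. An FPKM of at least 1 was reached by 17485 genes at 48 hpf and by 16149 genes at 24 hpf. Changes are given as log2((48 hpf + 1)/(24 hpf + 1)) of the FPKM, called the log2 ratio from here on. The added 1 makes ratios of low genes smaller than those of their FPKM. A gene is called higher or lower at 48 hpf where this ratio was at least 1 or at most -1, that is, at least 2-fold. By this measure 3331 genes were higher, 12.4% of all genes, and 1192 were lower, 4.45% of all genes. Among the genes past 2-fold, 93.6% also had a 95% interval of the FPKM ratio off 1, an exact (Clopper-Pearson) interval that covers counting error only. At least 16-fold differences were found for 77 higher and 31 lower genes. The median log2 ratio was 0.08 over all genes and 0.16 over the 18501 genes that reached 1 FPKM at either time. With the added 1, a gene under 1 FPKM at both times cannot pass 2-fold as deposited. All genes called higher or lower therefore lie among these 18501 genes, of which about 18% were higher and 6% lower. The shares over all genes are thus a low base for gene lists made mostly of such genes.

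The WT library of 24 hpf stood apart from the other 3 libraries in its ribosomal RNA. The 234 genes called rRNA locus genes here were typed as rRNA or mitochondrial rRNA in the table, or found less than 15 kb from a 5.8S gene. They held 0.482% of the reads at 48 hpf and 12.5% of the reads at 24 hpf in WT. In KDM5A-KO they held 0.341% at 48 hpf and 0.555% at 24 hpf. Reads in these genes push down the FPKM of every other gene of the same library. After median-of-ratios scaling, which sets the typical gene equal between libraries, every log2 FPKM ratio shifted by -0.10, and 3131 genes (11.7%) were higher and 1424 (5.31%) lower. With the rRNA locus reads left out of the totals, the shift was -0.19, and 2942 genes were higher and 1625 lower. The share of higher genes among those past 2-fold was 73.6% as deposited, 68.7% after median-of-ratios scaling and 64.4% with the rRNA locus reads left out. Both shifts are downward, so log2 ratios between 0 and about 0.2 have no direction that holds under each of these scalings.

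**Figure D1:**
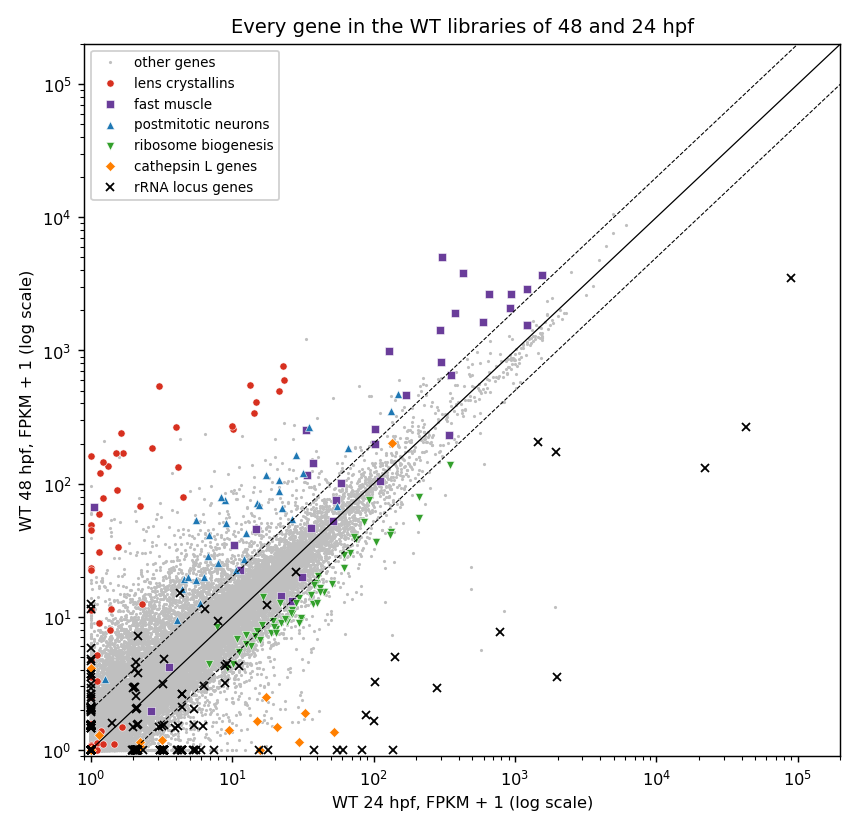
FPKM + 1 of every gene in the WT library of 48 hpf (vertical, log scale) against the WT library of 24 hpf (horizontal, log scale), with 5 gene lists and the rRNA locus genes marked. The solid line is equality and the dashed lines are 2-fold. All postmitotic neuron genes and most lens crystallins and fast muscle genes lie above the solid line. Most ribosome biogenesis genes, most cathepsin L genes and the rRNA locus genes of highest FPKM lie below it.

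Outside the rRNA locus and histone genes, the most changed protein-coding genes with an FPKM of at least 10 were led by the lens at the upper end. Of the 10 with the highest log2 ratio, 8 were gamma M2 crystallins of chromosome 9, the small water-soluble proteins that pack the fish lens. The FPKM of crygm2d13 was 544 at 48 hpf and 2.05 at 24 hpf, from 5522 reads at 48 hpf and 10 reads at 24 hpf, a log2 ratio of 7.48. No read of crygm2d4 was counted at 24 hpf, whereas its FPKM was 161 at 48 hpf, which is at least 349-fold higher when 3 reads are taken as the floor. The remaining pair, zgc:136930 at 208 FPKM at 48 hpf and 0.243 at 24 hpf and si:dkey-183i3.5 at 158 FPKM at 48 hpf and 0.592 at 24 hpf, carry no functional name in the table. The gamma M2 crystallins are close copies of one another, so the split of reads between them is uncertain.

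At the lower end stood cathepsin L-like and hatching enzyme genes, troponin genes and protogenin genes. The lowest 2 were wu:fi09b08 copies outside the rRNA locus, ENSDARG00000104790 with 10.8 FPKM at 48 hpf and 1916 at 24 hpf and ENSDARG00000103357 with 4.60 FPKM at 48 hpf and 576 at 24 hpf, which share their symbol with genes inside the locus. In KDM5A-KO, ENSDARG00000104790 had 10.7 FPKM at 48 hpf and 13.9 at 24 hpf, and ENSDARG00000103357 had 8.22 at 48 hpf and 45.7 at 24 hpf. The WT log2 ratios of these copies, -7.35 and -6.69, are near those of 2 copies inside the locus, -7.32 and -7.39. Whether their reads belong to the rRNA excess of the WT library of 24 hpf was not tested. The cathepsin L-like gene zgc:174153 was the next lowest, with 0.357 FPKM at 48 hpf and 51.5 at 24 hpf. The troponin genes tnni2b.1 and tnnt2c, parts of the calcium switch of the thin filament, had 15.3 and 22.5 FPKM at 48 hpf, against 486 and 489 FPKM at 24 hpf. The hatching enzyme he1a, a metalloprotease that digests the egg envelope, had 6.28 FPKM at 48 hpf and 134 FPKM at 24 hpf. The protogenin gene prtgb, which encodes a receptor of the immunoglobulin superfamily found in early embryos, had 0.977 FPKM at 48 hpf and 40.4 FPKM at 24 hpf, a log2 ratio of -4.39.

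Which tissues moved most was described with 61 gene lists for tissues, cell types and pathways. The lists and their members were chosen with earlier results of these data known, so their ranking is not independent of these data. Among the highest medians were those of lens, neurons, synapses, retina, melanophores, fast muscle and glycolysis. The lowest medians included those of the hatching gland, ribosome biogenesis, DNA replication, erythroid cells and the tailbud. Some genes belong to more than 1 list. Median-of-ratios scaling moved the list medians by about 0.1 or less. That is not small beside the spread of the members where these lie close together, as in the mitochondrially encoded proteins, whose median was 0.47 as deposited and 0.37 after scaling.

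**Figure D2:**
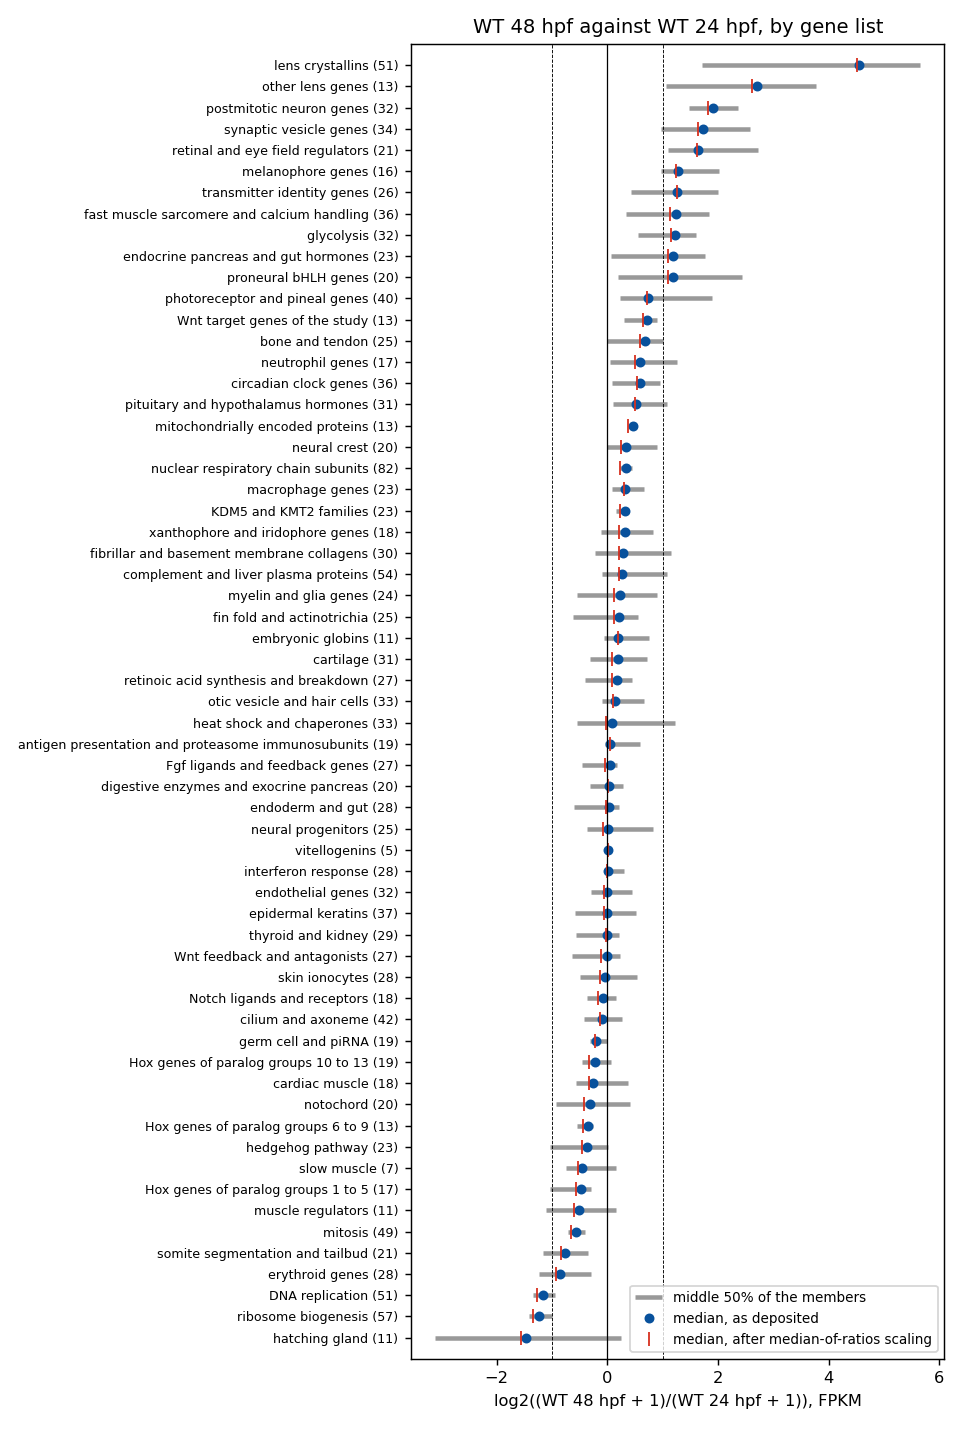
Log2 ratio of FPKM + 1, WT 48 hpf over WT 24 hpf (horizontal), for 61 gene lists (rows, with the number of members in brackets). Blue points are medians as deposited, red ticks are medians after median-of-ratios scaling, grey bars span the middle 50% of the members, and dashed lines are 2-fold. Lens crystallins have the highest median, 4.54, and the hatching gland list the lowest, -1.47.

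Lens crystallins had the highest median of the 61 lists in WT. Of 51 crystallin genes, 40 were higher at 48 hpf and none lower, beside 12.4% and 4.45% of all genes. Their median log2 ratio was 4.54, beside 0.08 over all genes. Together the crystallin genes took 1.37% of the summed FPKM at 48 hpf and 0.0343% at 24 hpf, the rRNA locus genes left out. Besides the gamma M2 genes, the beta crystallin cryba4 had 768 FPKM at 48 hpf and 21.8 at 24 hpf. Of 13 further lens genes, 10 were higher, with a median of 2.70. The fibre cell water channels mipb and mipa had 45.6 and 44.1 FPKM at 48 hpf, against 0.377 and 5.76 FPKM at 24 hpf. The beaded filament protein gene bfsp2 had 50.4 FPKM at 48 hpf and 0.620 at 24 hpf, and the lens fibre membrane protein gene lim2.4 had 92.1 at 48 hpf and 4.79 at 24 hpf. Genes of the early lens placode differed less. The log2 ratio of pitx3 was 0.51 and that of foxe3 was -0.06, and foxe3 stayed low, at 1.52 FPKM at 48 hpf and 1.63 FPKM at 24 hpf.

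Many retinal and pineal genes were higher at 48 hpf, and transcription factors of photoreceptors and bipolar cells led them. Of 21 retinal and eye field regulators, 16 were higher and 1 was lower, beside 12.4% and 4.45% of all genes, with a median of 1.64. The bipolar cell factor gene vsx1 had 119 FPKM at 48 hpf and 2.78 FPKM at 24 hpf. The photoreceptor factor genes crx and otx5 had 42.3 and 53.3 FPKM at 48 hpf, against 0.395 and 0.462 FPKM at 24 hpf. No read of atoh7, which starts the retinal ganglion cell fate, was counted at 24 hpf, and its 10.7 FPKM at 48 hpf is at least 27.8-fold higher by the 3-read floor. Of 40 photoreceptor and pineal genes, 17 were higher and none lower. The rod opsin gene rho was at 16.9 FPKM at 48 hpf and at 0 at 24 hpf, at least 65.4-fold higher, whereas the opsin gene opn1sw1 reached only 1.38 FPKM at 48 hpf. The rod transducin gene gnat1 had 1.44 FPKM at 48 hpf and 1.02 at 24 hpf. Among the eye field genes, rx1 was lower, at 5.50 FPKM at 48 hpf and 12.1 FPKM at 24 hpf.

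Most neuronal genes were higher at 48 hpf, from proneural factors to the synaptic machinery. Of 32 genes of postmitotic neurons, 31 were higher at 48 hpf and none lower, beside 12.4% and 4.45% of all genes. Their median log2 ratio was 1.90. The RNA-binding protein gene elavl4 had 77.9 FPKM at 48 hpf and 7.31 at 24 hpf, the microtubule regulator gene stmn1b had 267 at 48 hpf and 33.8 at 24 hpf, and the motor and sensory neuron factor gene isl1 had 49.6 at 48 hpf and 8.11 at 24 hpf. The exception was the synuclein gene sncga, at 66.4 FPKM at 48 hpf and 53.9 at 24 hpf. Of 34 synaptic vesicle genes, 25 were higher and none lower, with a median of 1.73. The SNARE gene snap25b was at 44.8 FPKM at 48 hpf and 3.48 at 24 hpf, and the calcium sensor gene syt1a was at 37.9 at 48 hpf and 4.34 at 24 hpf. Of 26 genes that make or transport a transmitter, 15 were higher. They included gad2, for GABA synthesis, with 21.5 FPKM at 48 hpf and 1.87 at 24 hpf, and slc17a6a, a vesicular glutamate transporter gene, with 17.7 FPKM at 48 hpf and 2.99 at 24 hpf. Serotonin and dopamine genes were low in both libraries, though th was past 2-fold higher, at 5.21 FPKM at 48 hpf and 1.28 at 24 hpf.

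Proneural bHLH genes differed among themselves. Of 20, 11 were higher and none lower, beside 12.4% and 4.45% of all genes, with a median of 1.18. The neurod genes lay at the upper end, with neurod1 at 84.2 FPKM at 48 hpf and 9.60 at 24 hpf and neurod6b at 31.1 at 48 hpf and 3.11 at 24 hpf, and neurod2 was at 4.82 FPKM at 48 hpf and 0 at 24 hpf, at least 19.2-fold higher. The hindbrain and dorsal neural tube gene atoh1a had 1.26 FPKM at 48 hpf and 3.05 at 24 hpf, and olig3 had 8.55 at 48 hpf and 16.8 at 24 hpf.

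Of 25 neural progenitor genes, 5 were higher and 2 lower, beside 12.4% and 4.45% of all genes, with a median of 0.02. Among genes that reached 1 FPKM, as 24 of the 25 did, about 18% were higher and 6% lower. The SoxB1 genes differed in direction. For sox1a the FPKM was 21.1 at 48 hpf and 6.76 at 24 hpf, for sox2 it was 63.4 at 48 hpf and 52.7 at 24 hpf, and for sox19a it was 65.2 at 48 hpf and 153 at 24 hpf. Radial glial genes also differed. The fatty acid binding protein gene fabp7a had 542 FPKM at 48 hpf and 78.3 at 24 hpf, and the intermediate filament gene gfap had 108 at 48 hpf and 91.7 at 24 hpf. The glial glutamate transporter paralogs went opposite ways, with slc1a3b at 36.7 FPKM at 48 hpf and 1.37 at 24 hpf and slc1a3a at 25.2 at 48 hpf and 117 at 24 hpf. Of 24 myelin and glia genes, 5 were higher and 2 lower, beside 12.4% and 4.45% of all genes. Among genes that reached 1 FPKM, as 22 of the 24 did, about 18% were higher and 6% lower. The myelin gene mbpb had 16.0 FPKM at 48 hpf and 11.7 at 24 hpf, and plp1a had 21.0 at 48 hpf and 41.8 at 24 hpf.

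**Figure D3:**
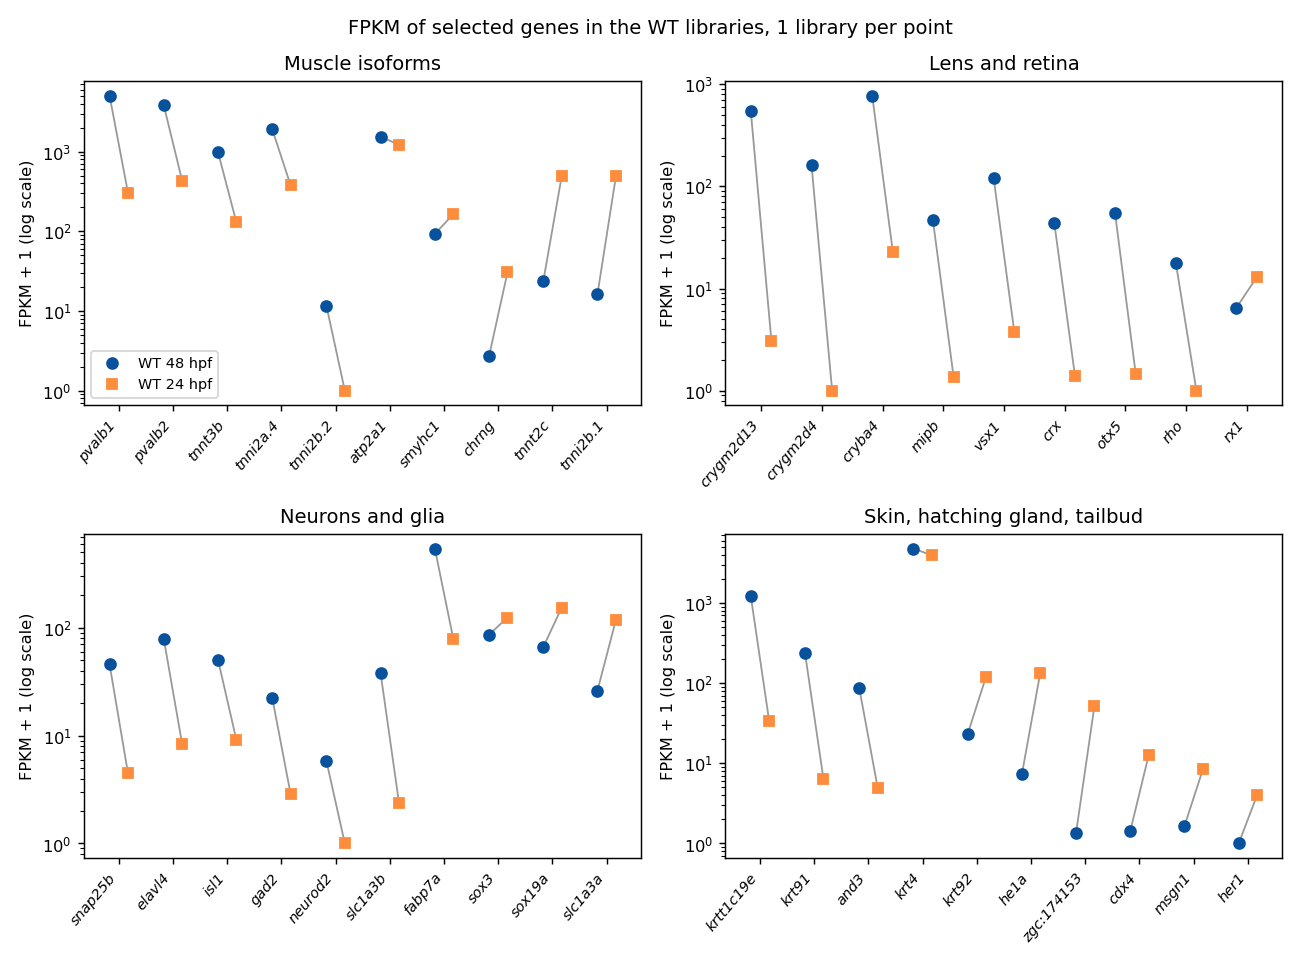
FPKM + 1 (log scale) of selected genes in the WT libraries, with 48 hpf as a circle to the left of 24 hpf as a square. The genes were chosen after their values were seen. Paralogs with opposite changes share a panel, such as tnni2b.2 with 10.6 FPKM at 48 hpf and 0 at 24 hpf against tnni2b.1 with 15.3 FPKM at 48 hpf and 486 at 24 hpf.

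Most of the listed fast muscle genes were higher at 48 hpf, while the listed slow muscle genes were not. Of 36 genes for fast muscle sarcomeres and calcium handling, 20 were higher at 48 hpf and 1 lower, with a median of 1.24. Over all genes, 12.4% were higher and 4.45% lower. They took 7.35% of the summed FPKM at 48 hpf and 2.77% at 24 hpf. The calcium-buffering parvalbumins pvalb1 and pvalb2 had 5014 and 3798 FPKM at 48 hpf, against 303 and 428 FPKM at 24 hpf. The creatine kinase gene ckma had 2637 FPKM at 48 hpf and 930 at 24 hpf, and the AMP deaminase gene ampd1 had 65.8 at 48 hpf and 0.0538 at 24 hpf. The skeletal alpha-actin gene actc1b had the highest FPKM of the 48 hpf library, 10611, against 4940 FPKM at 24 hpf. The giant sarcomere genes were not higher, with neb at 51.4 FPKM at 48 hpf and 50.3 at 24 hpf and ttn.1 at 12 FPKM at 48 hpf and 25.4 at 24 hpf. The calcium pump gene atp2a1 was high in both, at 1540 FPKM at 48 hpf and 1214 at 24 hpf.

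Among 23 troponin genes, which were listed after their values were seen, 7 were higher and 2 lower. Paralogs of 1 subunit went opposite ways. The fast muscle list does not hold tnni2b.1, so its counts depend on which members were listed. The fast troponin I gene tnni2a.4 had 1910 FPKM at 48 hpf and 377 at 24 hpf, and tnni2b.2 had 10.6 at 48 hpf and 0 at 24 hpf, whereas tnni2b.1 had 15.3 at 48 hpf and 486 at 24 hpf. Among troponin T genes, tnnt3b had 988 FPKM at 48 hpf and 128 at 24 hpf, and tnnt2c had 22.5 at 48 hpf and 489 at 24 hpf. In slow muscle, 1 of 7 genes was lower, tnnt2c, and none higher. The slow myosin gene smyhc1 had 91.6 FPKM at 48 hpf and 163 at 24 hpf. Muscle regulators had a median of -0.51, with 4 of 11 lower. The differentiation factor gene myog had 2.37 FPKM at 48 hpf and 7.31 at 24 hpf, and the myoblast factor gene myf5 had 2.59 at 48 hpf and 7.12 at 24 hpf. The satellite cell gene pax7a had 8.05 FPKM at 48 hpf and 6.09 at 24 hpf. Of 18 cardiac genes, 1 was higher and none lower, beside 12.4% and 4.45% of all genes. The higher one was the myosin light chain gene myl4, at 9.88 FPKM at 48 hpf and 2.13 at 24 hpf. The cardiac gene of highest FPKM, the actin gene actc1a, had 408 FPKM at 48 hpf and 814 at 24 hpf, which is just inside 2-fold as deposited and past it after scaling, with a log2 ratio of -1.10.

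**Figure D4:**
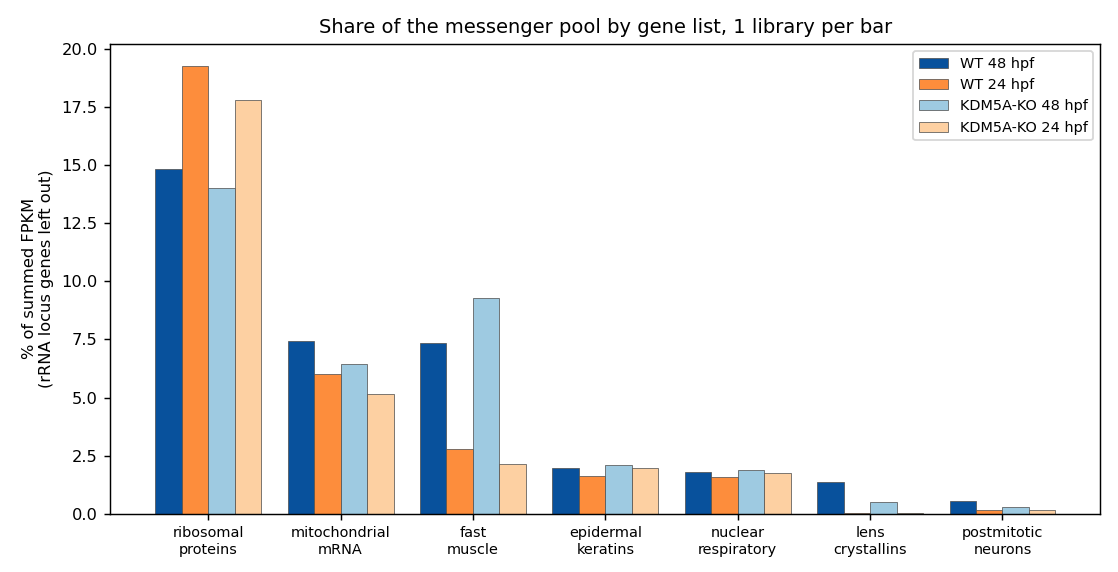
Share of the summed FPKM, in percent with the rRNA locus genes left out, of 7 gene lists in the 4 libraries, with 1 library per bar and no error bar. In WT, fast muscle genes take 7.35% at 48 hpf and 2.77% at 24 hpf, and ribosomal protein genes take 14.8% at 48 hpf and 19.2% at 24 hpf.

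Most genes of ribosome biogenesis and DNA replication were lower at 48 hpf. Of 57 ribosome biogenesis genes, 42 were lower and none higher, with a median of -1.24, beside 4.45% of all genes lower. Of 51 DNA replication genes, 33 were lower and none higher, and all 51 had a log2 ratio below 0, with a median of -1.16. The nucleolar chaperone gene npm1a had 54.4 FPKM at 48 hpf and 207 FPKM at 24 hpf. The snoRNP core gene nop56 had 39.9 FPKM at 48 hpf and 129 at 24 hpf, and dkc1, for pseudouridine synthesis in rRNA, had 42.2 at 48 hpf and 131 at 24 hpf. The replicative helicase genes mcm5 and mcm3 had 37.3 and 27.5 FPKM at 48 hpf, against 103 and 79.9 FPKM at 24 hpf. The replication licensing inhibitor gene gmnn had 3.99 FPKM at 48 hpf and 17.3 at 24 hpf. Mitosis genes shifted less, with 1 of 49 lower, a median of -0.56 and 46 below 0. The mitotic cyclin gene ccnb1 had 30.8 FPKM at 48 hpf and 60.1 at 24 hpf, and the topoisomerase gene top2a had 45.2 at 48 hpf and 61.3 at 24 hpf. The ribosomal protein genes themselves, listed after their values were seen, had a median of -0.19 over 87 genes with 1 higher and 1 lower, and took 14.8% of the summed FPKM at 48 hpf and 19.2% at 24 hpf.

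The rRNA locus and histone genes were taken apart. Of the 234 rRNA locus genes, 27 were higher and 97 lower in WT, and 22 were higher and 34 lower in KDM5A-KO. A single gene model, zgc:158463, held 65413 reads at 48 hpf and 808144 reads at 24 hpf, or 0.421% of the library at 48 hpf and 10.9% at 24 hpf. The 2 mitochondrial rRNA genes, which are among the 234, were lower in WT, with 7863 reads at 48 hpf and 32094 reads at 24 hpf together. In KDM5A-KO 1 of these 2 was lower. Of 113 snoRNA genes, 50 were lower and 8 higher in WT, and of 54 genes typed as miscellaneous RNA, 23 were lower and none higher. Of 134 histone and other nucleosome genes, 7 were higher and 48 lower in WT, with a median of -0.53. Over all genes, 12.4% were higher and 4.45% lower in WT. In KDM5A-KO 3 of the 134 were higher and 14 lower, with a median of -0.16, beside 6.34% and 3.54% of all genes. Among those lower in WT was HIST2H3PS2, with 1.1 FPKM at 48 hpf and 28.1 FPKM at 24 hpf. Replacement histone genes differed little, with h3f3a at 875 FPKM at 48 hpf and 941 at 24 hpf and h3f3d at 865 at 48 hpf and 887 at 24 hpf. The linker histone gene h1f0, known from resting cells, had 450 FPKM at 48 hpf and 132 FPKM at 24 hpf. Histone copies are near-identical, so the split of reads between them is uncertain. Without the rRNA locus and histone genes, 3297 genes were higher and 1047 lower.

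Several genes of body axis extension were lower at 48 hpf. Of 21 genes for somite segmentation and the tailbud, 7 were lower and none higher, beside 4.45% and 12.4% of all genes, with a median of -0.77. The posterior gene cdx4 had 0.433 FPKM at 48 hpf and 11.6 at 24 hpf, the presomitic mesoderm gene tbx6 had 0.782 at 48 hpf and 8.29 at 24 hpf, and msgn1 had 0.654 at 48 hpf and 7.43 at 24 hpf. No read of the segmentation clock gene her1 was counted at 48 hpf, against 3.02 FPKM at 24 hpf, at least 27.8-fold lower. Of the delta genes in the list, dlc had 25.4 FPKM at 48 hpf and 19.3 at 24 hpf, and dld had 26.6 at 48 hpf and 44.1 at 24 hpf. Anterior Hox genes had a median of -0.47, with 5 of 17 lower. Within them hoxb1a, a gene of hindbrain segments, had 1.41 FPKM at 48 hpf and 9.99 at 24 hpf, and hoxc4a had 22.5 at 48 hpf and 18.1 at 24 hpf. None of 13 genes of paralog groups 6 to 9 passed 2-fold. In groups 10 to 13, 1 of 19 was lower, close to the 4.45% of all genes. It was hoxc13b, with 2.4 FPKM at 48 hpf and 6.04 at 24 hpf.

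In the signalling lists a few members passed 2-fold, and several of the counts are close to the shares over all genes, 12.4% higher and 4.45% lower. In the hedgehog pathway 6 of 23 genes were lower and 2 higher, with a median of -0.36. After median-of-ratios scaling 7 of them were lower and none higher. The transcriptional effector genes gli1 and gli2b had 5.03 and 5.22 FPKM at 48 hpf, against 12.1 and 15.2 FPKM at 24 hpf, and the floor plate target nkx2.9 had 0.663 FPKM at 48 hpf and 8.53 at 24 hpf. The ligand gene shha had 8.56 FPKM at 48 hpf and 8.47 at 24 hpf. Of 27 Wnt feedback and antagonist genes, 1 was higher, the Wnt effector gene lef1, with 28.2 FPKM at 48 hpf and 9.98 at 24 hpf, and 3 were lower. The feedback gene axin2 had 21.3 FPKM at 48 hpf and 21.5 at 24 hpf. Of 18 Notch genes, 2 were higher, heyl and the endothelial ligand gene dll4, and after scaling heyl alone. Of 27 Fgf genes, none was higher and 2 were lower, fgf17 and fgf10b. In the retinoic acid list 4 of 27 were higher, led by the binding protein gene crabp1a, with 29.7 FPKM at 48 hpf and 0.154 at 24 hpf, and none was lower.

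Single genes of the epidermis and its appendages went opposite ways. The list of 37 keratin and other epidermal genes had a median of 0.00, with 6 higher and 4 lower. The basal keratin gene krtt1c19e had 1218 FPKM at 48 hpf and 32.4 at 24 hpf, and krt91 had 237 at 48 hpf and 5.44 at 24 hpf. The keratin gene krt92 had 22.1 FPKM at 48 hpf and 120 at 24 hpf, while krt4, the keratin gene of highest FPKM, had 4788 at 48 hpf and 3932 at 24 hpf. The hemidesmosome collagen gene col17a1a had 39.2 FPKM at 48 hpf and 0.391 at 24 hpf. The actinodin genes and1, and2 and and3, which build the fin fold rays of fish, had 128, 117 and 86.4 FPKM at 48 hpf, against 24.0, 8.36 and 3.99 FPKM at 24 hpf. The Fraser complex genes fras1 and frem2a, of the basement membrane, were lower, with fras1 at 5.63 FPKM at 48 hpf and 12.7 at 24 hpf and frem2a at 1.94 at 48 hpf and 5.60 at 24 hpf. Skin ionocytes had 4 of 28 genes higher and 2 lower, close to the 12.4% and 4.45% of all genes, with the ammonia transporter gene rhbg at 13.9 FPKM at 48 hpf and 0.615 at 24 hpf and the ionocyte specifier foxi1 at 0.984 at 48 hpf and 4.02 at 24 hpf.

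The hatching gland list had the lowest median of the 61, -1.47, with 6 of 11 genes lower and 1 higher. Over all genes, 4.45% were lower and 12.4% higher. Besides he1a, the hatching enzyme genes he1b and he2 had 0.373 and 0.124 FPKM at 48 hpf, against 6.81 and 8.25 FPKM at 24 hpf. The cathepsin L gene ctslb (ENSDARG00000039173), active in the gland, had 0.143 FPKM at 48 hpf and 28.6 FPKM at 24 hpf. Secretory genes shared with other tissues differed less, with xbp1 at 107 FPKM at 48 hpf and 90.1 at 24 hpf. The cathepsin L genes are near-identical copies, and the split of reads between them is uncertain.

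Of 31 cartilage genes, 5 were higher and 2 lower, close to the 12.4% and 4.45% of all genes, with matn3a at 28.4 FPKM at 48 hpf and 1.08 at 24 hpf and col9a1a at 25.8 at 48 hpf and 3.2 at 24 hpf. Of 25 bone and tendon genes, 7 were higher and none lower. No read of col10a1a, a collagen gene of bone in zebrafish, was counted at 24 hpf, and its 7.66 FPKM at 48 hpf is at least 50.2-fold higher. The fibrillar collagen gene col1a1a had 615 FPKM at 48 hpf and 285 at 24 hpf. Notochord genes had a median of -0.32, with 5 of 20 lower and 3 higher, the collagen gene col8a1a among them at 12.7 FPKM at 48 hpf and 69.6 at 24 hpf. The main cartilage and notochord collagen gene col2a1a had 303 FPKM at 48 hpf and 325 at 24 hpf. In the ear, the otoconin gene oc90 had 0.840 FPKM at 48 hpf and 15.8 at 24 hpf, and the hair cell factor gene pou4f3 had 5.89 at 48 hpf and 0 at 24 hpf, at least 14.5-fold higher.

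Many erythroid genes were lower and globin genes were mixed. Of 28 erythroid genes, 12 were lower and 1 higher, with a median of -0.85. The master factor gene gata1a had 0.338 FPKM at 48 hpf and 3.14 at 24 hpf, and the haem synthesis genes urod and alas2 had 9.47 and 7.76 FPKM at 48 hpf, against 45.7 and 18.2 FPKM at 24 hpf. The higher member was rhag, a membrane protein gene of red cells, with 24.6 FPKM at 48 hpf and 8.86 at 24 hpf. Among 11 embryonic globins, hbbe1.1 had 543 FPKM at 48 hpf and 212 at 24 hpf, hbae3 had 978 at 48 hpf and 539 at 24 hpf, and hbbe3 had 141 at 48 hpf and 603 at 24 hpf, and reads may be shared between these copies. Of 17 neutrophil genes, 7 were higher and none lower, with the lysozyme gene lyz at 50.2 FPKM at 48 hpf and 7.58 at 24 hpf and the myeloperoxidase gene mpx at 3.77 at 48 hpf and 0.987 at 24 hpf. Of 23 macrophage genes, 2 were higher, mpeg1.1 and coro1a, and 1 was lower, apoeb, a lipoprotein gene also active outside macrophages. The macrophage counts are close to the 12.4% higher and 4.45% lower of all genes.

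Pigment genes were higher along the melanin route. Of 16 melanophore genes, 11 were higher and none lower, with a median of 1.28. The melanin synthesis genes tyrp1b and dct had 276 and 128 FPKM at 48 hpf, against 26.3 and 19.9 FPKM at 24 hpf. The melanosome protein gene pmela had 92.7 FPKM at 48 hpf and 20.4 at 24 hpf. The master factor gene mitfa had 5.59 FPKM in both. Among the genes of the yellow and silver pigment cells, gch2 for pteridine synthesis had 177 FPKM at 48 hpf and 81.0 at 24 hpf, pnp4a for purine crystals had 21.9 at 48 hpf and 4.33 at 24 hpf, and the purine synthesis gene gart had 7.72 at 48 hpf and 19.7 at 24 hpf. Of 20 neural crest genes, 5 were higher and 3 lower, beside 12.4% and 4.45% of all genes. The crest factor genes tfap2a and tfap2e had 93.9 and 30.9 FPKM at 48 hpf, against 33.7 and 3.61 FPKM at 24 hpf, whereas the migrating crest genes snai1b and crestin had 3.53 and 0.406 FPKM at 48 hpf, against 11.7 and 2.54 FPKM at 24 hpf.

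Complement and liver plasma protein genes were more often higher than lower at 48 hpf. Of 54, 15 were higher and 2 lower, beside 12.4% and 4.45% of all genes, with a median of 0.26. The apolipoprotein genes apoa1b and apoa2 had 616 and 595 FPKM at 48 hpf, against 298 and 149 FPKM at 24 hpf, and the retinol carrier gene rbp4 had 153 FPKM at 48 hpf and 35.4 at 24 hpf. The fibrinogen chain genes fga, fgb and fgg had 18.8, 17.7 and 13.3 FPKM at 48 hpf, against 8.04, 6.96 and 4.41 FPKM at 24 hpf. The fetuin gene fetub had 35.8 FPKM at 48 hpf and 76.4 at 24 hpf. Endocrine genes had a median of 1.19, with 12 of 23 higher, but several of these genes are also used by neurons. The insulin gene ins itself had 5.58 FPKM at 48 hpf and 4.43 at 24 hpf. Digestive enzymes stayed low, with 1 of 20 genes higher, the pancreas factor gene ptf1a, which the hindbrain and retina also use, and the trypsin gene try at 1.49 FPKM at 48 hpf and 0.869 at 24 hpf.

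In energy metabolism, the glycolytic genes differed more than the respiratory ones. Of 32 glycolysis genes, 21 were higher and none lower, with a median of 1.22. The pyruvate kinase gene pkmb had 97.5 FPKM at 48 hpf and 10.5 at 24 hpf, and gapdhs had 311 at 48 hpf and 38.9 at 24 hpf. Aldolase and hexokinase genes were exceptions, with aldoab at 356 FPKM at 48 hpf and 422 at 24 hpf and hk1 at 26.8 in both. Of 82 nuclear respiratory chain genes, 8 were higher and none lower, beside 12.4% and 4.45% of all genes. Their median was 0.34, and 78 were above 0. The 13 mitochondrially encoded protein genes had a median of 0.47 and none passed 2-fold, with mt-co1 at 8750 FPKM at 48 hpf and 6047 at 24 hpf. These 2 medians were 0.24 and 0.37 after median-of-ratios scaling.

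Chaperone genes went both ways. Of 33, 10 were higher and 6 lower, beside 12.4% and 4.45% of all genes. The muscle chaperone genes unc45b and hsp90aa1.1, which fold myosin, had 13.9 and 24.7 FPKM at 48 hpf, against 80.4 and 138 FPKM at 24 hpf, and the small heat shock genes hspb1 and hspb8 had 11.9 and 7.08 FPKM at 48 hpf, against 120 and 39.9 FPKM at 24 hpf. The chaperones of the secretory pathway, hsp90b1 and serpinh1b, had 123 and 77.2 FPKM at 48 hpf, against 41.7 and 27.1 FPKM at 24 hpf. The stress-inducible gene hsp70l had 11.9 FPKM at 48 hpf and 0.642 at 24 hpf in WT, and 146 FPKM at 48 hpf and 0.708 at 24 hpf in KDM5A-KO. Of 36 circadian genes, 8 were higher and none lower, beside 12.4% and 4.45% of all genes. Among genes that reached 1 FPKM, as 31 of the 36 did, about 18% were higher and 6% lower. The higher circadian genes were led by nr1d2a, a clock repressor gene, with 15.4 FPKM at 48 hpf and 1.66 at 24 hpf. Both libraries were taken at whole days after fertilization by their labels. An effect of the hour of collection was not tested.

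The demethylase genes that the study is about changed by less than 2-fold in WT apart from kdm5bb. KDM5A had 18.1 FPKM at 48 hpf and 13.8 FPKM at 24 hpf, from 996 reads at 48 hpf and 364 at 24 hpf, a log2 ratio of 0.37, and the 95% interval of the log2 FPKM ratio was 0.22 to 0.57. After median-of-ratios scaling its log2 ratio was 0.27. In the libraries labelled KDM5A-KO the gene had 16.3 FPKM at 48 hpf and 20.3 at 24 hpf, so its RNA level does not set the labelled genotypes apart. Its paralog kdm5bb had 64.0 FPKM at 48 hpf and 30.6 at 24 hpf, a log2 ratio of 1.04 as deposited and 0.94 after scaling. For kdm5ba the ratio was 0.68 and for kdm5c 0.58. Of the 23 genes of the KDM5 and KMT2 families and their partners, 2 were higher and none lower, beside 12.4% and 4.45% of all genes. The higher ones were kdm5bb and the H3K27 demethylase gene kdm6bb, the latter with 36.9 FPKM at 48 hpf and 10.8 at 24 hpf. Of 13 genes that the study treats as Wnt targets or regulators, 3 were higher and none lower, isl1, lef1 and sox1a, with a median of 0.72. The study discusses these genes with libraries of this series in view, so the list is not independent of these data.

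How the same interval looked in KDM5A-KO was read from its own 2 libraries. There 1699 genes (6.34%) were higher at 48 hpf and 948 (3.54%) lower. Of the genes higher in WT, 1296 were also higher in KDM5A-KO, which is 38.9% of the WT set and 76.3% of the KDM5A-KO set. Of the genes lower in WT, 421 were also lower in KDM5A-KO, 35.3% of the WT set and 44.4% of the KDM5A-KO set. The opposite call was rare, with 18 WT-higher genes lower in KDM5A-KO and 15 WT-lower genes higher. The WT-higher genes had a median log2 ratio of 1.53 in WT and 0.81 in KDM5A-KO, and the WT-lower genes had -1.29 in WT and -0.79 in KDM5A-KO. These genes were chosen for passing 2-fold in WT, which by itself makes their WT values the more extreme. After median-of-ratios scaling, 3131 genes were higher in WT and 1962 in KDM5A-KO, with 1424 lower in WT and 665 in KDM5A-KO. With 1 library per group, no difference between the genotypes was tested.

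List by list, medians of retinal, postmitotic neuron, synaptic vesicle and transmitter genes were higher in WT than in KDM5A-KO. The fast muscle median was lower in WT. The proneural median was 1.18 in WT and 1.06 in KDM5A-KO as deposited, an order that is not secure under scaling. The neural progenitor median was 0.02 in WT and 0.42 in KDM5A-KO. Over all genes, 12.4% were higher in WT and 6.34% in KDM5A-KO, and 4.45% were lower in WT and 3.54% in KDM5A-KO. Median-of-ratios scaling shifts the WT ratios by -0.10 and the KDM5A-KO ratios by 0.15, so each gap between medians depends on it. Photoreceptor and pineal genes had 17 of 40 higher in WT and 4 in KDM5A-KO, the latter near the share of all genes there. The log2 ratio of crx was 4.96 in WT and 1.41 in KDM5A-KO, and that of rho was 4.17 in WT and 0.49 in KDM5A-KO. Postmitotic neuron genes had 31 of 32 higher in WT and 17 in KDM5A-KO, with medians of 1.9 in WT and 1.1 in KDM5A-KO. Ribosome biogenesis had 42 of 57 lower in WT and 11 in KDM5A-KO, and DNA replication 33 of 51 lower in WT and 16 in KDM5A-KO. In fast muscle, 20 of 36 genes were higher in WT and 26 in KDM5A-KO, with medians of 1.24 in WT and 1.80 in KDM5A-KO. Glycolysis had nearly the same median as deposited, 1.22 in WT and 1.25 in KDM5A-KO. Scaling lowers the WT median to 1.15 and shifts the KDM5A-KO ratios upward, so this closeness is not secure either. Somite and tailbud genes had 7 of 21 lower in WT and 13 in KDM5A-KO, and hatching gland genes had 6 of 11 lower in each. With the rRNA locus reads left out, the WT median of ribosome biogenesis was -1.41 and that of postmitotic neuron genes was 1.74.

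**Figure D5:**
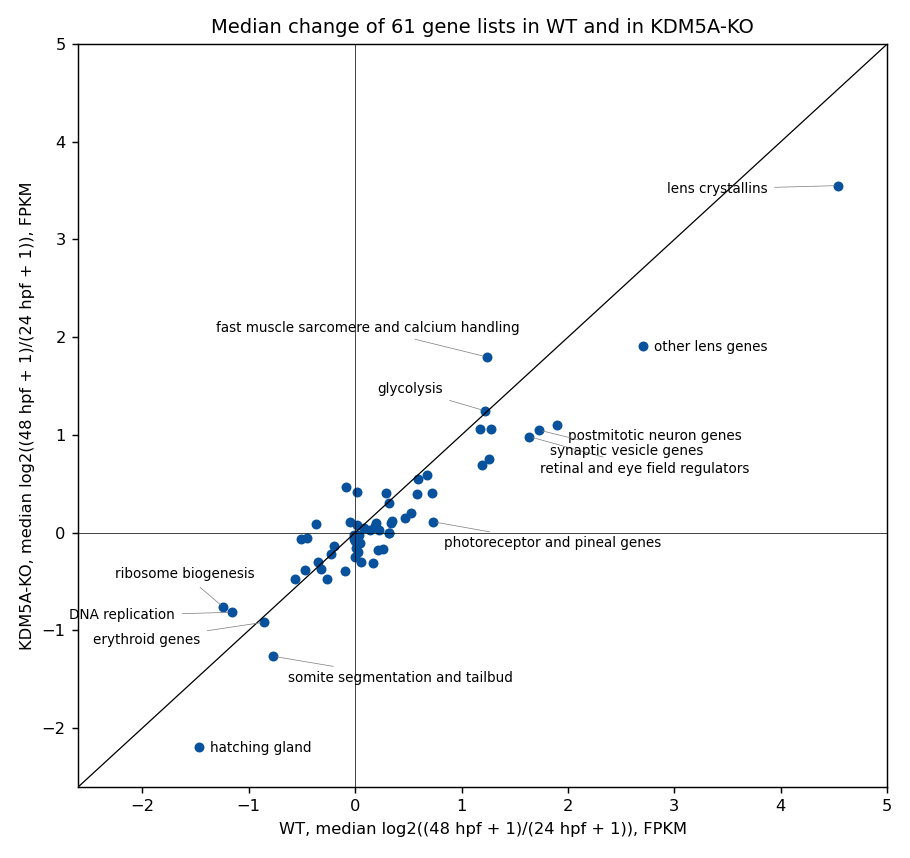
Median log2 ratio of FPKM + 1, 48 hpf over 24 hpf, of 61 gene lists in KDM5A-KO (vertical) against WT (horizontal), 1 point per list. On the diagonal both genotypes have the same median. Postmitotic neuron and photoreceptor lists lie below it (1.9 in WT and 1.1 in KDM5A-KO, and 0.74 in WT and 0.11 in KDM5A-KO), and fast muscle lies above it (1.24 in WT and 1.80 in KDM5A-KO).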

How the data were processed

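RNA of whole zebrafish embryos was sequenced in 4 libraries, 1 per genotype and time. Per the study's methods and the labels' processing notes, the authors checked reads with FastQC 0.11.5, aligned them with HISAT2 2.1.0, quantified genes with StringTie 1.3.3b and called differences with DESeq 1.28.0. The authors deposited FPKM values, 1 per Ensembl gene and library. The processing notes name the mouse build mm10 although the gene IDs are zebrafish ones, so no coordinates are given. The methods and the labels name different library kits, and the strand setting is not given in the sources used here, so overlapping genes cannot be told apart.

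Log2 ratios were taken with a pseudocount of 1 FPKM, 48 hpf over 24 hpf, over all 26812 genes, using pandas 2.3.3, numpy 2.4.6 and scipy 1.17.1 under Python 3.11.15, with plots by matplotlib 3.10.9. No count model was run, because the values are FPKM and each group has 1 library. Reads were recovered for all 26812 genes, taking the smallest solution in whole reads, and summed to between 98.2% and 98.5% of the library totals. Totals were 15525056 (WT 48 hpf), 7441797 (WT 24 hpf), 15922314 (KDM5A-KO 48 hpf) and 14724748 (KDM5A-KO 24 hpf). Intervals are 95% Clopper-Pearson intervals of the ratio and, like the floor of 3 reads, cover counting error only. Read recovery and 2-fold calls were first tested on simulated data. Median-of-ratios scaling used 14596 genes with at least 1 FPKM in all 4 libraries. Histone genes were those with the GO term nucleosome.

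The 61 gene lists were written from textbook knowledge, and 6 more (immediate early genes, muscle and neuronal acetylcholine receptor subunits, ribosomal proteins, troponins, cathepsin L genes) were added after the values were seen. Members and lists were chosen with earlier results of these data known. Of 1808 names and aliases, 1646 matched the table, 44 of them through a gene name table. Genes were to be named by a rule: the 10 highest and 10 lowest log2 ratios among protein-coding genes with at least 10 FPKM, in each list the 2 members of highest FPKM and those of highest and lowest ratio, the 5 genes of highest FPKM per library, the genes holding most rRNA locus reads, and KDM5A with its paralogs. The 10 highest and 10 lowest were ranked among genes with a symbol, with the rRNA locus and histone genes left out. The whole rule gave 233 genes, and the choice of other members followed their values. The alternatives tried were median-of-ratios scaling, totals without rRNA locus genes, a pseudocount of 0.1, a 3-fold threshold, a mean FPKM of at least 5, protein-coding genes alone, genes without the rRNA locus and histone sets, members with at least 1 FPKM, and genes whose counting interval leaves out 1.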

Additional observations from a re-analysis of the deposited data

Results flagged for a closer look

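For 3 named genes and 3 gene lists the change between 24 and 48 hpf had opposite signs in the 2 genotypes. The genes were past 2-fold in WT and had a 95% counting interval in KDM5A-KO that left out 0, and the lists had medians at least 0.1 from 0 in both genotypes. Other genes and lists with opposite signs did not meet these limits. In none was the difference between the genotypes tested, since each group had 1 library. The eye field gene rx1 had a log2 ratio of -1.01 in WT and 0.605 in KDM5A-KO. The titin gene ttn.1 had -1.02 in WT and 0.903 in KDM5A-KO, and the apolipoprotein gene apoa1b had 1.05 in WT and -0.531 in KDM5A-KO. Among the gene lists, complement and liver plasma proteins had a median of 0.264 in WT and -0.17 in KDM5A-KO, fin fold and actinotrichia genes had 0.216 in WT and -0.173 in KDM5A-KO, and genes of retinoic acid synthesis and breakdown had 0.172 in WT and -0.311 in KDM5A-KO. Median-of-ratios scaling shifts the WT ratios by -0.10 and the KDM5A-KO ratios by 0.15. After it the WT log2 ratios of rx1, ttn.1 and apoa1b were -1.11, -1.12 and 0.94, so apoa1b no longer passes 2-fold. The WT medians of the 3 lists after it, in the same order, were 0.22, 0.119 and 0.09. The retinoic acid list then no longer meets the limit of 0.1. The KDM5A-KO shift is about as large as the medians of -0.17 and -0.173 there. The opposite signs of the lists are therefore not secure under scaling.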

How the results depend on the processing

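The counts of higher and lower genes in WT, 3331 and 1192, stayed within 1.5 times under median-of-ratios scaling, totals without rRNA locus genes, protein-coding genes alone, the counting interval, and without the rRNA locus and histone genes. They moved further with a pseudocount of 0.1 (6322 higher, 2806 lower), a mean FPKM of at least 5 (1492 and 669 of 10166 genes) and a 3-fold threshold (1563 and 362). The genes past 2-fold the same way in both genotypes were 1717, and 1785 after median-of-ratios scaling. They were 4006 with a pseudocount of 0.1 and 1043 with a mean FPKM of at least 5. The 2 directions moved apart under scaling. Shared higher genes went from 1296 to 1419, or from 38.9% to 45.3% of the WT set. Shared lower genes went from 421 to 366, or from 35.3% to 25.7% of the WT set. None of the 233 genes named by the rule, nor of the list medians, that was past 2-fold changed its sign under the alternatives run for it. Neither shifts of -0.10 and -0.19 nor another pseudocount can turn the sign of a ratio past 2-fold. This result is therefore no check of direction. No paired analysis was possible because there was a single library per genotype and time, and leaving out a library leaves no comparison. Depth limits low genes most: at 24 hpf in WT, 1 read in a gene of 1 kb is worth 0.134 FPKM, against 0.0644 FPKM at 48 hpf. Genes with a mean FPKM of 1 to 5 were higher in 21.4% and lower in 5.25% of cases, and those over 100 in 13.8% and 6.50%. Spread between embryos, pools and library preparations was not measured.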

Other observations

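Immediate early genes, which neurons and other cells switch on within minutes of a stimulus, were higher at 48 hpf in a list made after their values were seen. Of 23, 18 were higher and none lower in WT, with a median log2 ratio of 2.33. In KDM5A-KO 17 were higher and 1 lower, with a median of 1.94. Over all genes, 12.4% were higher and 4.45% lower in WT, and 6.34% and 3.54% in KDM5A-KO. The transcription factor gene fosab had 76.4 FPKM at 48 hpf and 1.19 FPKM at 24 hpf in WT, egr1 had 52.9 at 48 hpf and 1.87 at 24 hpf, and the neuronal activity gene npas4a had 15.3 at 48 hpf and 0.0284 at 24 hpf. The muscle and neuronal acetylcholine receptor genes, also listed after their values were seen, lay on opposite sides. All 6 muscle subunit genes had a log2 ratio below 0, with 2 of them lower, and the embryonic gamma subunit gene chrng had 1.71 FPKM at 48 hpf and 29.5 at 24 hpf. All 11 neuronal subunit genes had a ratio above 0 as deposited, with 3 higher, among them chrnb3a with 7.51 FPKM at 48 hpf and 2.9 at 24 hpf. The smallest of these ratios was 0.0078, which has no direction that holds under the scalings, and 8 of the 11 genes reached 1 FPKM.

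Of 32 endothelial genes, 4 were higher and 3 lower in WT, with a median of 0.00. Over all genes, 12.4% were higher and 4.45% lower. After median-of-ratios scaling 1 endothelial gene was higher and 3 were lower. The receptor gene kdrl had 6.69 FPKM at 48 hpf and 6.49 at 24 hpf, and the early endothelial factor gene etv2 had 5.67 at 48 hpf and 12.5 at 24 hpf. None of 42 cilium genes passed 2-fold. Of 19 antigen presentation genes, 5 were higher and none lower in WT, with a median of 0.06, and 7 reached 1 FPKM. Among the higher was the class I gene mhc1zaa with 2.29 FPKM at 48 hpf and 0.208 at 24 hpf in WT. After median-of-ratios scaling 4 of the 19 were higher in WT. In KDM5A-KO none of them was higher and 5 were lower as deposited. Of 28 interferon response genes, 1 was higher in WT, stat1a. Of 31 pituitary and hypothalamus genes, 8 were higher and none lower, with the neuropeptide gene adcyap1b at 29.4 FPKM at 48 hpf and 3.35 at 24 hpf.

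In WT, 2288 genes had reads at 48 hpf and none at 24 hpf, of which 274 reached 1 FPKM and 19 reached 10 FPKM. The reverse held for 905 genes, of which 183 reached 1 FPKM and 9 reached 10 FPKM. The totals of the 2 libraries differ, so a gene at 0 at 24 hpf has had fewer reads to be seen in.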
